A study of Homo sapiens with 9 samples.

Results

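The 10 genes described here were near-silent in SGPL1 knockout cells and well expressed in at least 1 of the other 2 groups, or the reverse. They are 10 of 60671 genes in the files and 10 of 14150 genes with enough counts to test. CILP2, NAXD, TDO2 and DMTN were read in the knockout and almost absent elsewhere, while MARVELD2, SH3TC1, CD109, TPD52, EYA2 and GALNT12 were almost absent in the knockout. All 10 passed the filter on low counts. They were chosen by name for their counts in the knockout (KO) against the wild type (WT) or against cells labelled as overexpressing SGPL1 (OE), so those 2 contrasts are given as descriptions with no test. Polyadenylated RNA was sequenced from untreated H295R cells, a steroid-producing human line from a tumour of the adrenal cortex, in 3 libraries each of SGPL1 KO, SGPL1 OE and WT cells. The labels give neither the edit in the KO cells nor the construct in the OE cells, and they do not say whether a line is 1 clone. The design text calls the libraries biological replicates but names no cultures, so p-values measure only how much these libraries varied, which may in part be technical variation.

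SGPL1 encodes sphingosine-1-phosphate lyase, which irreversibly cleaves the signalling lipid sphingosine-1-phosphate in the endoplasmic reticulum and so ends sphingolipid breakdown. Inherited loss of this enzyme in humans causes adrenal insufficiency together with kidney disease. The 10 genes belong to no single pathway: they include a cartilage matrix protein, 2 metabolic enzymes, an actin-binding protein, a tight-junction protein, a TGF-beta co-receptor, a membrane-trafficking protein, a transcriptional coactivator and a glycosyltransferase.

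Library totals lay between 8006873 and 10895080 counts. SGPL1 itself had 404, 406 and 503 counts in KO libraries, 892, 588 and 1076 in OE libraries and 898, 682 and 853 in WT libraries. Relative to WT its log2 fold change was -0.97 ± 0.14 (SE) in KO (edgeR adjusted p = 0.000105) and -0.01 ± 0.14 in OE (edgeR adjusted p = 0.966), so the OE label is not matched by a higher SGPL1 count. All 10 adrenocortical markers looked up, such as NR5A1, STAR and CYP11A1, were present, with summed levels of 3635 to 4305 CPM (counts scaled by the TMM-adjusted size of each library) in KO, 3892 to 4632 in OE and 2672 to 3031 in WT. SCARB1 was the largest part of these sums, with means of 1796 CPM in KO, 1936 in OE and 1086 in WT. The markers did not move together. In KO, OE and WT, CYP21A2 was at 114, 322 and 102 CPM, NR0B1 at 15.3, 5.88 and 4.755, and CYP17A1 at 58.9, 59.5 and 68.0. No leukocyte marker exceeded 26 counts and no endothelial marker exceeded 4 counts in any library. The 7 fibroblast markers summed to 14.7 to 17.3 CPM in KO, 11.9 to 16.9 in OE and 17.2 to 27.7 in WT. Of these COL3A1, at 3.75 ± 0.0892 CPM in KO, 3.93 ± 1.39 in OE and 11.5 ± 3.08 in WT (SD, n = 3 each), was lower in KO (log2 fold change -1.62 ± 0.29, edgeR adjusted p = 0.000699) and in OE (-1.54 ± 0.29, edgeR adjusted p = 0.00197) than in WT, COL1A1 was not called in either, PDGFRA and DCN never exceeded 6 and 14 counts, and LUM was at 0 throughout. Small counts were mostly even, since 65.1% to 70.1% of the genes with 1 to 10 counts had an even count, and a count of 2 can therefore stand for 1 read pair.

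CILP2 encodes cartilage intermediate layer protein 2, a secreted protein of the extracellular matrix, and lies at chr19:19538248-19546659 on the plus strand of GRCh38. It had 618, 658 and 535 counts in KO libraries, 4, 2 and 2 in OE libraries, and 4, 0 and 4 in WT libraries. The lowest KO library thus held 535 counts and the highest other library 4. In CPM the means were 66.8 ± 8.35 in KO, 0.301 ± 0.128 in OE and 0.304 ± 0.263 in WT (SD, n = 3 each). The log2 fold change was 7.69 ± 0.33 (SE) for KO against WT and 7.75 ± 0.33 for KO against OE. In bulk RNA a few cells with much of a transcript and many cells with little of it cannot be told apart, here or for the other genes.

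NAXD encodes the dehydratase that repairs damaged, hydrated forms of NADH and NADPH, and lies at chr13:110615460-110639993 on the plus strand. It had 254, 280 and 245 counts in KO libraries, 4, 0 and 4 in OE libraries, and 10, 10 and 4 in WT libraries. The KO libraries lay far above the rest, and the mean was 28.7 ± 2.19 CPM in KO, 0.272 ± 0.238 CPM in OE and 0.938 ± 0.416 CPM in WT (SD, n = 3 each). The log2 fold change was 4.92 ± 0.32 for KO against WT and 6.54 ± 0.38 for KO against OE. An antisense gene, NAXD-AS1, covers 302 exonic bases (10.6%) of NAXD, and reads there were left out by the counting. NAXD-AS1 had 10, 9 and 4 counts in KO, 2, 0 and 2 in OE, and 8, 0 and 14 in WT, so it did not share the separation of NAXD.

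TDO2 encodes tryptophan 2,3-dioxygenase, which opens the kynurenine pathway of tryptophan breakdown and is best known from liver. The gene lies at chr4:155854738-155920406 on the plus strand. It had 54, 67 and 60 counts in KO libraries, 6, 2 and 2 in OE libraries, and none in the 3 WT libraries. Its level was 6.66 ± 0.51 CPM in KO and 0.375 ± 0.251 CPM in OE (SD, n = 3 each). Against a floor of 3 counts per library in WT, KO was at least 19.0-fold higher, and KO against OE gave a log2 fold change of 4.11 ± 0.50 (SE), or 4.80 without OE replicate 1. Such floors cover counting error only.

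DMTN encodes dematin, which bundles actin filaments in the membrane skeleton of red blood cells, and lies at chr8:22048995-22082527 on the plus strand. It had 93, 84 and 38 counts in KO libraries, 2, 0 and 0 in OE libraries, and 0, 2 and 0 in WT libraries. KO replicate 3 held fewer than the other KO libraries but lay far above every OE and WT library. The mean was 8.0 ± 3.53 CPM in KO (SD, n = 3). Counts in KO, pooled over libraries and scaled by their summed size, were 102 times those in WT. The 95% counting interval was 18.0 to 4075 when counts are read as pairs. The fitted log2 fold change was 6.44 for KO against WT and 6.50 for KO against OE. It was 9.16 without WT replicate 2 and 9.15 without OE replicate 1, the sole library of its group with a count in each case, and 5.88 against OE without OE replicate 3. KO replicate 3 was also the lowest KO library for CILP2 and NAXD.

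**Figure D1:**
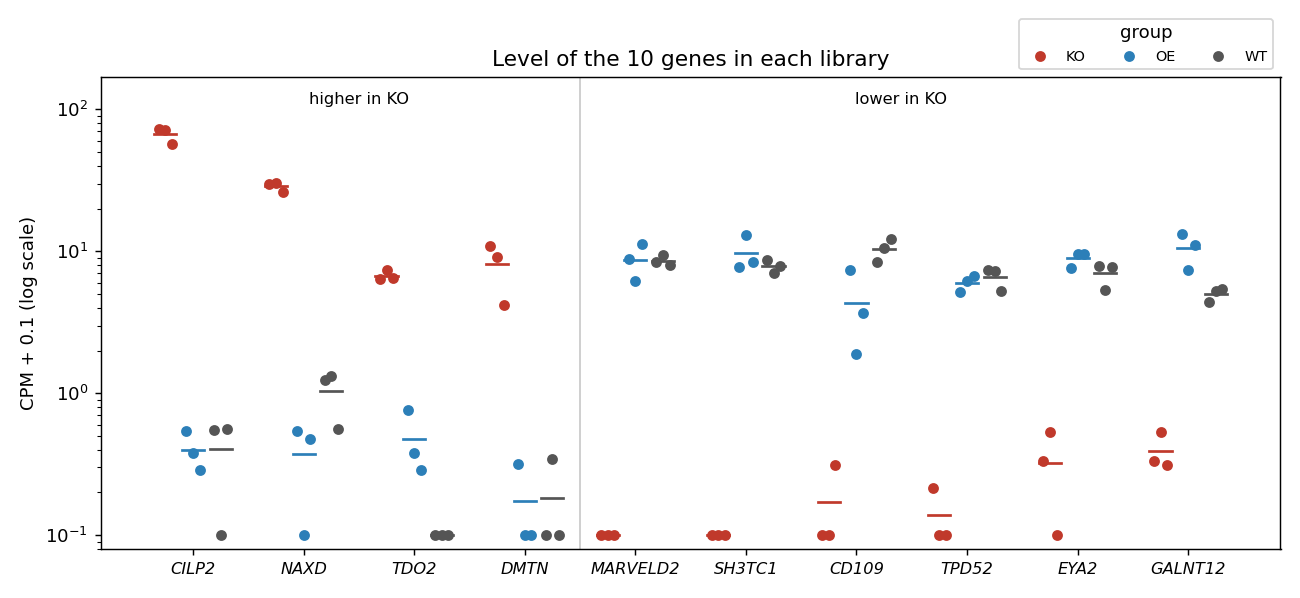
Level of each of the 10 genes in each library, in CPM plus 0.1 on a log axis, with KO, OE and WT side by side, 1 point per library and a line at the group mean. The KO points of CILP2, NAXD, TDO2 and DMTN lie above all OE and WT points, and those of the other 6 genes lie below all of them; 3 WT libraries of TDO2 and all KO libraries of MARVELD2 and SH3TC1 sit at 0.

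MARVELD2 encodes tricellulin, the tight-junction protein of the points where 3 epithelial cells meet, and lies at chr5:69415065-69444330 on the plus strand. It had no count in any of the 3 KO libraries, 79, 44 and 118 counts in OE libraries and 73, 76 and 69 in WT libraries. With 0 counts in each KO library, KO was at least 25.6-fold lower than WT and at least 26.0-fold lower than OE. A list of 6 epithelial markers stood at a summed 14.4 to 17.8 CPM in KO libraries, 30.1 to 34.6 CPM in OE libraries and 27.1 to 31.1 CPM in WT libraries. That difference was EPCAM, at 10.5, 12.8 and 12.7 CPM in KO libraries and 23.2, 28.1 and 24.7 CPM in WT libraries. The keratins KRT18, at 2.67 CPM in KO and 2.33 CPM in WT, and KRT8, at 0.947 CPM in KO and 0.309 CPM in WT, did not follow it. CDH1 never exceeded 6 counts, KRT19 never exceeded 2 and KRT5 was at 0 in every library. The part of these markers in the MARVELD2 result was not tested.

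SH3TC1 encodes a protein with SH3 and tetratricopeptide domains and lies at chr4:8182072-8241803 on the plus strand. It had no count in any KO library, 70, 93 and 88 counts in OE libraries and 76, 57 and 68 in WT libraries. KO was at least 23.5-fold lower than WT and at least 29.0-fold lower than OE. MARVELD2 and SH3TC1 were the 2 genes of the 10 with no count in the KO at all.

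CD109 encodes a membrane-anchored relative of alpha-2-macroglobulin that acts as a TGF-beta co-receptor and dampens TGF-beta signalling, and lies at chr6:73695785-73828316 on the plus strand. It had 0, 0 and 2 counts in KO libraries, 66, 13 and 38 in OE libraries, and 73, 86 and 106 in WT libraries. The 3 groups did not overlap, and the OE libraries were spread widely, at 4.21 ± 2.78 CPM against 10.3 ± 1.98 CPM in WT (SD, n = 3 each). Pooled and scaled counts of WT were 140 times those of KO, with a counting interval of 24.6 to 5548 on read pairs. The fitted log2 fold change was -6.88 against WT and -5.61 against OE. It was -9.51 and -8.24 without KO replicate 3, the sole KO library with a count, and -4.98 against OE without OE replicate 1. An antisense gene, CD109-AS1, shares 300 exonic bases (3.1%) with CD109 and never exceeded 4 counts.

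TPD52 encodes tumor protein D52, a coiled-coil protein of membrane trafficking that is often raised in breast and prostate cancers, and lies at chr8:80034745-80231232 on the minus strand. It had 1, 0 and 0 counts in KO libraries, 46, 44 and 70 in OE libraries, and 64, 59 and 45 in WT libraries. Pooled and scaled counts of WT were 178 times those of KO, with a counting interval of 31.4 to 7050 on single reads. With WT counts halved to read pairs and the sole KO count kept whole, the interval was 15.5 to 3546. The fitted log2 fold change was -7.01 against WT and -6.86 against OE, and -8.87 and -8.72 without KO replicate 1, the sole KO library with a count. The OE and WT libraries overlapped, and the KO libraries lay apart from both.

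EYA2 encodes a transcriptional coactivator and phosphatase that works with homeodomain factors of the sine oculis family, and lies at chr20:46894624-47188844 on the plus strand. It had 2, 4 and 0 counts in KO libraries, 69, 68 and 101 in OE libraries, and 69, 43 and 67 in WT libraries. The log2 fold change was -4.89 ± 0.48 (SE) for KO against WT and -5.23 ± 0.47 for KO against OE. Without KO replicate 2 these were -5.78 and -6.13.

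GALNT12 encodes a transferase that starts mucin-type O-glycosylation by adding N-acetylgalactosamine to proteins, and lies at chr9:98807670-98850081 on the plus strand. It had 2, 4 and 2 counts in KO libraries, 119, 53 and 117 in OE libraries, and 38, 42 and 46 in WT libraries. Every KO library kept a few reads, and the 3 groups did not overlap. The log2 fold change was -4.00 ± 0.43 for KO against WT and -5.09 ± 0.40 for KO against OE. An unnamed antisense gene overlaps 662 exonic bases (20.9%) of GALNT12 and had no count in any library.

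With near-silent taken as a group mean under 1 CPM and well expressed as at least 5 CPM, 74 genes of the series met the rule, 71 of them protein-coding, and the 10 genes were among them. Of the 74, 21 were on and 38 off in KO against WT, and 24 were on and 28 off in KO against OE. Of the 21, 20 were among the genes tested. As shares of the genes tested, those on and off made up 0.141% and 0.269% against WT, and 0.17% and 0.198% against OE. All 10 genes separated the KO libraries from WT without overlap, a property that 35.2% of all genes tested had, and from OE, as 51.7% of all genes tested had. Since the genes were chosen on those contrasts, nothing is read from these shares. Among the 10, CD109 lay outside the rule against OE, where its mean was 4.21 CPM, and GALNT12 lay outside it against WT, where its mean was 4.91 CPM. CREB5 was just inside, at 5.01 CPM in KO and 0.979 CPM in WT, and BRSK2 was just outside against OE, at 0.149 CPM in KO and 4.92 CPM in OE. Requiring at least 10 CPM left 22 genes of the series and 4 of the 10.

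Per kilobase of exon, which allows genes to be compared, CILP2 in KO reached 15.3 CPM per kilobase, above 76.7% of the genes tested, and NAXD in KO reached 10.1, above 68% of them. DMTN and TDO2 were lower in KO, at 1.79 and 1.26 CPM per kilobase, above 30.3% and 24.5% of the genes tested. The 6 genes that were off in the KO had modest levels in WT, between 0.735 CPM per kilobase for SH3TC1, above 15.1% of the genes tested, and 1.91 for EYA2, above 30.8%. In OE the highest of these 6 was GALNT12, at 3.31 CPM per kilobase, above 43.6% of the genes tested. Among the genes described here, those on in the KO spanned a wider range per kilobase than those off in it. Since these genes were chosen by name for their counts, that range describes the choice, and nothing is read from it about genes that come on or go off.

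The start regions of 7 of the 10 genes could be read from RefSeq on GRCh38.p14, each with 250 bases before the annotated start and 50 after it. The windows of 5 of them are shown because they span the range of CpG content within both directions of change. CpG pairs are in capitals. The first 3 are the genes on in the KO, and the last 2 are off in it. CILP2 is chr19:19538015-19538314, NAXD is chr13:110615210-110615509, TDO2 is chr4:155903446-155903745, SH3TC1 is chr4:8181822-8182121 and GALNT12 is chr9:98807420-98807719, all on the plus strand.
CILP2: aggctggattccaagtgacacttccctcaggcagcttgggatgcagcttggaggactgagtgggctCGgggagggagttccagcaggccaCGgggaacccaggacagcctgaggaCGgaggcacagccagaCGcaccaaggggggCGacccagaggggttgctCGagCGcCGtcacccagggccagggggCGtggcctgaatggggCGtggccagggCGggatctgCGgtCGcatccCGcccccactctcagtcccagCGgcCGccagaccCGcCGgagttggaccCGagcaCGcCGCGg
NAXD: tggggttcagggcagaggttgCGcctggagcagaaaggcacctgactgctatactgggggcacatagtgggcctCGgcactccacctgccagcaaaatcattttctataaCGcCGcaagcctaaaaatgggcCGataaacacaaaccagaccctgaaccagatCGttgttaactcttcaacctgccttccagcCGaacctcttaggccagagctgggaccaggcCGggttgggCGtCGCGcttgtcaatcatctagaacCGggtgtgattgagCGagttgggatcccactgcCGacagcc
TDO2: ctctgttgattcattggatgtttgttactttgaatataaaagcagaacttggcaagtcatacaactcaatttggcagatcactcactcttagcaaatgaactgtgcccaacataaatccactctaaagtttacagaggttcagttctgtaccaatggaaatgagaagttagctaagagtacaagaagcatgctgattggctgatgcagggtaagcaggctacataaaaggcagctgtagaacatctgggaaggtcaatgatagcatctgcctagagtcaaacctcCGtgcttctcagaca
SH3TC1: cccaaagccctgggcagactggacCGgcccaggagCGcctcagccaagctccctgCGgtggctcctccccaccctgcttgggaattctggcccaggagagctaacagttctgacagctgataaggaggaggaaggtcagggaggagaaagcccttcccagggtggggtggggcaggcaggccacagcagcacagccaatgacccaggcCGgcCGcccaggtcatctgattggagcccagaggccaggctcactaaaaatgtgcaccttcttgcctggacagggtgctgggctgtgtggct
GALNT12: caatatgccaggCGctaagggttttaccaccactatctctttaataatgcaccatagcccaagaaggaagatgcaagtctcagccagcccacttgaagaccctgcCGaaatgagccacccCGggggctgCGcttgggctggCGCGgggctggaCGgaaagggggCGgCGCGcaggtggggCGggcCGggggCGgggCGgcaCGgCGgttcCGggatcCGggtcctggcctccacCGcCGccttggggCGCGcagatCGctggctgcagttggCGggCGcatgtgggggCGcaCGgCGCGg

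The TDO2 window held 1 CpG and the SH3TC1 window 5, although TDO2 was on in the KO and SH3TC1 off. The NAXD window held 14, CD109 17, CILP2 22, MARVELD2 25 and GALNT12 29, against a median of 25 over 15527 windows of genes tested. As a ratio of observed to expected CpG, TDO2 had 0.078 and GALNT12 0.835, with 1.7% and 54.1% of the windows lower. TDO2, NAXD and CILP2, on in the KO, had ratios of 0.078, 0.588 and 0.599, under the median of 0.814 for windows of genes tested. SH3TC1, CD109, MARVELD2 and GALNT12, off in it, had 0.165, 0.684, 0.797 and 0.835. Apart from SH3TC1, the genes off thus had higher ratios than the genes on. These are 7 genes chosen by name, and a link of CpG content to direction was not tested. The TDO2 window lies 48958 bases inside the gene as the files annotate it, whose annotated start lies upstream.

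**Figure D2:**
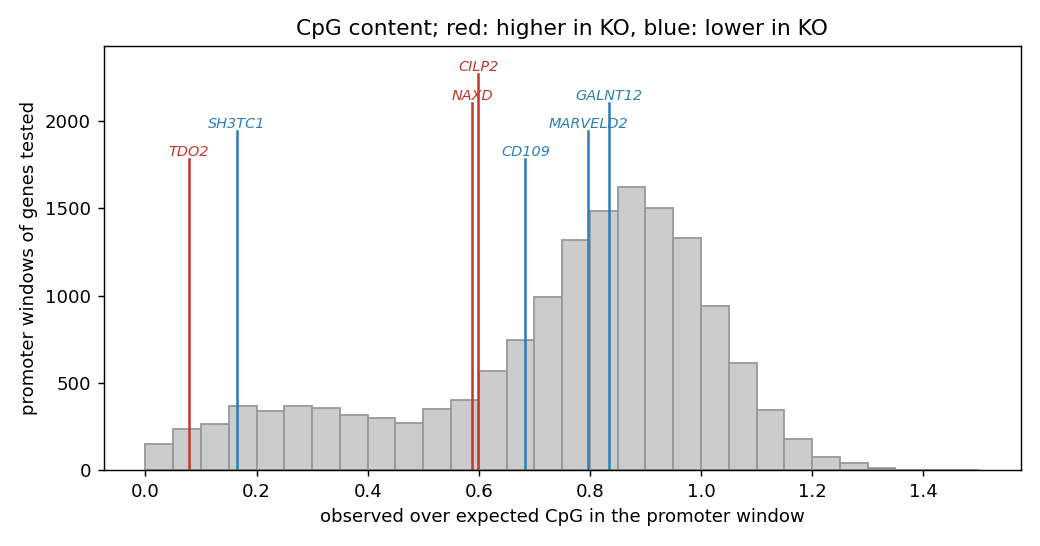
Observed over expected CpG in promoter windows of genes tested, as a histogram of the number of windows, with lines for the 3 genes higher in KO (red) and the 4 lower in KO (blue) that had a window. TDO2 at 0.078 and SH3TC1 at 0.165 lie in the low tail, and the other 5 lie between 0.588 and 0.835.

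A set of 4 short motifs was searched on both strands. The GC box GGGCGG was found 4 times in GALNT12, with 1 overlap of a base between neighbouring matches, 3 times in MARVELD2, 2 times in CILP2 and once each in SH3TC1 and CD109, and 65.5% of the windows of genes tested hold it. CCAAT was found 3 times in TDO2, 2 times in SH3TC1 and once in MARVELD2, and 35.1% of windows hold it. AAGGTCA, the half-site bound by the adrenal factor NR5A1, was found once in TDO2, from base -1 to base 6 counted from the start, and once in SH3TC1, from base -119 to -113, and 2.8% of windows hold it. TATAAA was found in TDO2 alone of the 7, from base -216 to -211, and 6.3% of windows hold it. These matches are letters in a window and not shown sites.

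OE against WT was not a contrast of the choice, though both levels entered it through their contrasts with KO. CILP2, NAXD, TDO2 and DMTN passed the filter on low counts only through their KO libraries, and none of the 4 passed it on the OE and WT libraries alone. They are therefore left out of the OE against WT test, and their counts, given above, stand as a description. The 6 genes off in the KO passed the filter on those libraries alone. Of these 6, 2 passed the edgeR test at an adjusted p under 0.05, GALNT12 higher and CD109 lower, where 20.7% of all genes tested did, 9.65% higher and 11% lower. Those 2 were also the ones of the 6 whose OE and WT libraries did not overlap, as was the case for 36.4% of all genes tested. GALNT12 was at 10.5 ± 2.91 CPM in OE and 4.91 ± 0.535 CPM in WT (SD, n = 3 each), with a log2 fold change of 1.10 ± 0.27 (SE, edgeR adjusted p = 0.0107). CD109 had a log2 fold change of -1.27 ± 0.39 (SE, edgeR adjusted p = 0.0295).

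The other 4 were not called. Their 95% intervals on the log2 scale were -0.62 to 0.69 for MARVELD2, -0.36 to 0.95 for SH3TC1, -0.87 to 0.58 for TPD52 and -0.38 to 1.07 for EYA2. A difference of 2-fold lay inside the interval of EYA2 at its upper end. Both calls depend on single libraries, and neither was made without WT replicate 1. GALNT12 without WT replicate 1 gave 1.01 (edgeR adjusted p = 0.0547) and without OE replicate 1 gave 0.91 (edgeR adjusted p = 0.0513). CD109 lost its call without any 1 of the WT libraries, OE replicate 2 or OE replicate 3, with an edgeR adjusted p of up to 0.122 and a log2 fold change between -1.89 and -0.92 with each library left out in turn.

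**Figure D3:**
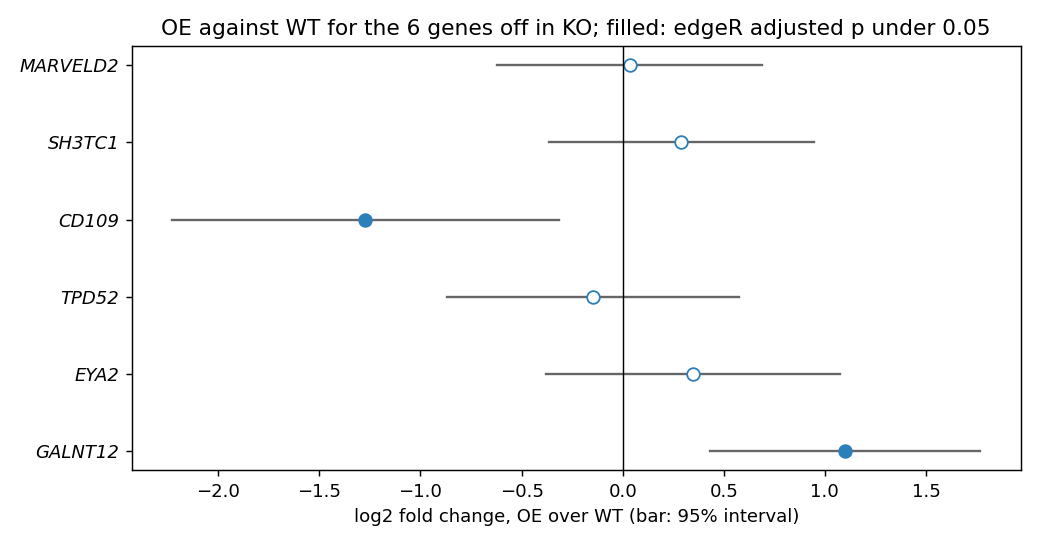
Log2 fold change of OE over WT for the 6 genes off in the KO, with the 95% interval as a bar and filled points for an edgeR adjusted p under 0.05. GALNT12 at 1.10 and CD109 at -1.27 are filled, and the intervals of the other 4 include 0.

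Across the 9 libraries, 622 genes had log2 CPM that spanned at least 3, and the 2 most like each of the 10 were taken by Pearson's r over those libraries. These r values mainly restate the split of KO from the rest and carry no test. CILP2 was closest to LRRC17 (r = 0.99), a gene for a leucine-rich repeat protein, at 134 CPM in KO, 9.02 CPM in OE and 7.35 CPM in WT. NAXD was closest to LDLRAD4 and the kinase gene SRC (r = 0.992 each). TDO2 was closest to CYP19A1 (r = 0.989), the gene of aromatase, at 258 CPM in KO, 43.5 CPM in OE and 21.2 CPM in WT, and to UTS2 (r = 0.987), which encodes urotensin 2. DMTN was closest to TDGF1 and MX2, and CD109 to ARHGAP10 and the thyrotropin receptor gene TSHR. MARVELD2 was closest to RNF182 and RAB31 (r = 0.997 each), the second a gene for a Rab GTPase that had no count in KO and 20.5 CPM in OE and 24.0 CPM in WT. SH3TC1 and TPD52 shared VCX among their closest genes, and TPD52 was as close to CYP27A1 (r = 0.996), a sterol 27-hydroxylase gene at 0.0779 CPM in KO, 34.2 CPM in OE and 26.7 CPM in WT. EYA2 was closest to the non-coding LINC00221 and H19, and GALNT12 to CD44 and COX7B2.

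The neighbours of the 10 genes were chosen by position, as the 5 tested genes on each side, 100 in all. In KO against WT 34 of them changed, 12 higher and 22 lower, where 18.8% of all genes tested changed, 9.16% higher and 9.6% lower. Of these, 15 changed by at least 2-fold, against 7.39% of all genes tested. The count fell to 20 without KO replicate 2 and to 22 without KO replicate 3 or without WT replicate 1, where 12.2%, 12.6% and 12.5% of all genes tested changed. Beside the 4 genes on in the KO, 10 of 40 neighbours changed, 5 in each direction. Beside the 6 genes off in the KO, 24 of 60 changed, 7 higher and 17 lower. Over both, 22 of the 34 changed in the direction of the gene they lie beside. This was uneven, since 6 of the 22 lay beside MARVELD2 and 5 beside TDO2. None of the 4 changed neighbours of DMTN and none of the 2 of TPD52 shared its direction. The nearest tested gene on each side, 20 in all, changed in 5 cases, none of them by 2-fold. In KO against OE 47 of the 100 changed, 25 higher and 22 lower, where 39.7% of all genes tested did, 20.6% higher and 19% lower, and in OE against WT 24 did, where 20.7% did. That last count was 11 without WT replicate 1, 13 without WT replicate 3 and 14 without OE replicate 2, where 9.54%, 8.6% and 12.7% of all genes tested changed.

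The loci differed. None of the 10 neighbours of CILP2 and none of those of NAXD changed in KO against WT. GATAD2A, a subunit gene of a chromatin-remodelling complex, was the nearest tested gene before CILP2, 29316 bases away. It had a log2 fold change of 0.03 ± 0.16 (SE), and PBX4 on the other side of CILP2 had -0.29 ± 0.53. YJEFN3 lies between GATAD2A and CILP2 but had at most 4 counts in any library and was not tested. CARS2, a mitochondrial aminoacyl-tRNA synthetase gene that ends 1418 bases from NAXD, had -0.31 ± 0.15 (edgeR adjusted p = 0.17), and RAB20 had 0.20 ± 0.19. GATAD2A was lower in OE than in WT, at -0.84 ± 0.16 on the log2 scale (edgeR adjusted p = 0.00258), as was the collagen gene COL4A2 beside NAXD, at -1.08 ± 0.17 (edgeR adjusted p = 0.000609). In KO against WT, CILP2 and NAXD thus lay among neighbours that did not pass the test.

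Around TDO2 6 of 10 neighbours changed in KO against WT, 5 higher and 1 lower, with a median log2 fold change of 0.79 over the 10. Those that changed lay far from TDO2, with gaps from 840047 bases for PDGFC to 2204067 bases for GASK1B. PDGFC, a growth factor gene, was at 143 CPM in KO and 66.6 CPM in WT, with a log2 fold change of 1.10 ± 0.13 (SE, edgeR adjusted p = 1.64e-05). GRIA2, a glutamate receptor subunit gene, was at 7.01 CPM in KO and 2.16 CPM in WT (log2 fold change 1.69 ± 0.42, edgeR adjusted p = 0.00968). TLR2, an innate immune receptor gene, rose by 1.41 ± 0.26 (edgeR adjusted p = 0.000996). RNF175 was at 2.02 CPM in KO and had no count in WT (edgeR adjusted p = 0.00165). LRAT, which esterifies retinol, fell by 3.20 on the log2 scale (SE 0.68, edgeR adjusted p = 0.00317). CTSO, a cathepsin gene only 3711 bases from TDO2, had 0.41 ± 0.16 and did not pass (edgeR adjusted p = 0.0889), and neither did MAP9 on the other side. None of the 10 changed in OE against WT.

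DMTN, on in the KO, had 4 neighbours that fell and none that rose in KO against WT. GFRA2, a co-receptor gene for neurturin, was at 0.144 CPM in KO and 3.46 CPM in WT, a log2 fold change of -4.44 ± 0.74 (SE, edgeR adjusted p = 0.000402). LPL, the lipoprotein lipase gene 2081735 bases away, was at 0.072 CPM in KO and 1.08 CPM in WT, -3.65 ± 1.01 (edgeR adjusted p = 0.0181). FHIP2B, 6622 bases away, fell by 0.71 (SE 0.23, edgeR adjusted p = 0.0375), while the exportin gene XPO7 on the other side had -0.07 ± 0.13. The gene that was on in the KO thus lay among neighbours that were lower or did not pass.

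Around MARVELD2 all 10 neighbours had a negative log2 fold change in KO against WT, and 6 passed the test, with a median of -0.62. RAD17, a DNA damage checkpoint gene that ends 263 bases before MARVELD2, was at 31.3 CPM in KO and 48.9 CPM in WT, -0.64 ± 0.15 (SE, edgeR adjusted p = 0.0073). CCDC125 had -1.03 ± 0.31 (edgeR adjusted p = 0.0257), and 3 further genes on the same side lay between -0.66 and -0.47. SERF1B fell by 3.46 on the log2 scale (SE 0.84, edgeR adjusted p = 0.0082). Its WT libraries were spread widely, at 10.3 ± 14.2 CPM, against 0.91 ± 0.622 CPM in KO (SD, n = 3 each). It also has a near-identical copy nearby, and its counts are uncertain. OCLN, the gene of the related junction protein occludin, was at 0.661 CPM in KO and 1.15 CPM in WT and did not pass (edgeR adjusted p = 0.57). Each of the 10 neighbours kept some counts in the KO group, where MARVELD2 had none. The lowest was OCLN, with a mean of 0.661 CPM and 0.701, 0 and 1.28 CPM in the KO libraries.

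SH3TC1 had neighbours that changed both ways. HMX1, a homeobox gene, had no count in KO and 1.32 CPM in WT (edgeR adjusted p = 0.00344). PSAPL1, 747141 bases away, rose by 3.27 ± 0.56 on the log2 scale (SE, edgeR adjusted p = 0.00081). It was at 3.86 CPM in KO, 0.386 CPM in WT and 0 in OE. At those levels it can have passed the filter on low counts only through KO, so nothing is read from OE against WT for it. AFAP1-AS1 was at 5.24 CPM in KO and 0.152 CPM in WT (edgeR adjusted p = 5.85e-05). Reads shared by exons of several genes were left out. Strand was ignored, so other reads from the opposite strand cannot be told from its own. AFAP1, which overlaps it on that strand, was at 1.78 CPM in KO and 1.38 CPM in WT and did not pass (edgeR adjusted p = 0.731). The nearest tested genes on both sides, a GMPS pseudogene and a non-coding RNA, did not pass.

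Of the 10 neighbours of TPD52, 9 had a positive log2 fold change in KO against WT although TPD52 was off there, and 2 passed. PKIA, an inhibitor gene of protein kinase A that lies 1429477 bases away, rose by 1.04 ± 0.13 (SE, edgeR adjusted p = 3.16e-05). MRPS28, 4455 bases away, had 0.36 ± 0.26 and ZBTB10 had 0.29 ± 0.21, neither called. In OE against WT the zinc-finger gene ZNF704 fell by 1.16 on the log2 scale (SE 0.20, edgeR adjusted p = 0.00148).

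EYA2 had 4 neighbours that fell in KO against WT and none that rose. SULF2, which edits heparan sulfate outside the cell, was at 26.5 CPM in KO and 61.7 CPM in WT, -1.22 ± 0.16 (SE, edgeR adjusted p = 4.73e-05). ZNF334 fell by 1.06 (SE 0.28, edgeR adjusted p = 0.0132). The nearest tested gene on one side, the sugar transporter gene SLC2A10, fell by 0.49 (edgeR adjusted p = 0.0449). On the other side the chromatin reader gene ZMYND8 fell by 0.58 (edgeR adjusted p = 0.025). ZMYND8 was also lower in OE, at 46.8 CPM against 97.1 CPM in WT (edgeR adjusted p = 0.000911), although EYA2 was not called there.

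Around CD109 2 neighbours rose and 2 fell in KO against WT, none by 2-fold, and the adjacent SLC17A5 and COX7A2 did not pass, with 0.17 ± 0.17 and -0.20 ± 0.16 (SE). COX7A2 lies 1409358 bases away as the next tested gene. Around GALNT12 1 neighbour rose and 4 fell. ANKS6, the nearest tested gene on one side, was at 40.3 CPM in KO and 62.5 CPM in WT, -0.63 ± 0.13 (edgeR adjusted p = 0.00241). COL15A1 on the other side had -0.27 ± 0.13 (edgeR adjusted p = 0.17).

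**Figure D4:**
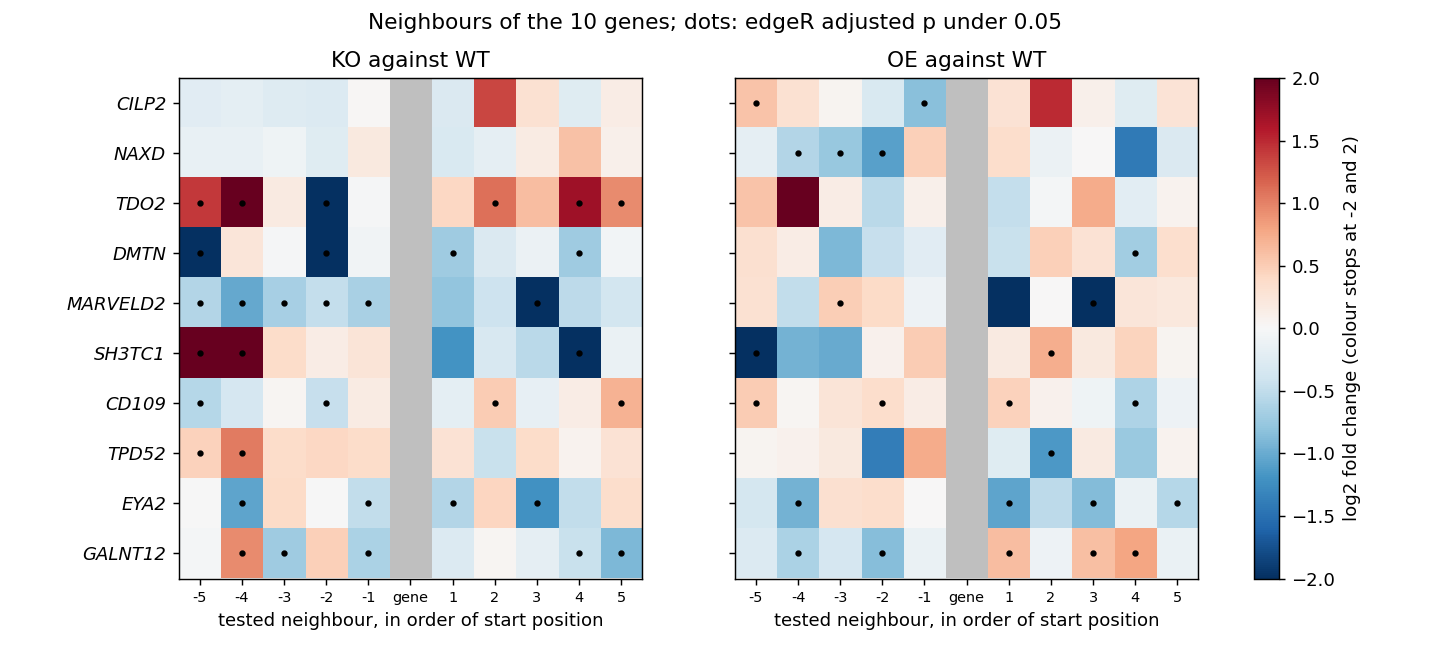
Log2 fold change of the 5 tested genes on each side of each of the 10 genes, ordered by start position, for KO against WT (left) and OE against WT (right). Colour runs from blue (lower) to red (higher), grey marks the gene itself, and dots mark an edgeR adjusted p under 0.05. In the left map the TDO2 row holds 5 red and 1 blue dotted cells, the MARVELD2 row is blue throughout, and the CILP2 and NAXD rows hold no dot.

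Relatives and pathway partners of the 10 genes were taken from 10 lists of 128 genes, of which 91 could be tested. In KO against WT 31 of the 91 changed, 19 higher and 12 lower, where 18.8% of all genes tested changed, and their median log2 fold change was 0.03 against -0.007 over all genes. The count was 17 without WT replicate 1 and 20 without KO replicate 2, where 12.5% and 12.2% of all genes tested changed. In KO against OE 50 of 91 changed, where 39.7% of all genes tested did. In OE against WT 25 changed, where 20.7% of all genes tested did, and the count was 13 without WT replicate 1 and 12 without WT replicate 3, where 9.54% and 8.6% of all genes tested changed.

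For the genes on in the KO, the lists moved in mixed directions. Of 4 cartilage matrix genes tested, only MATN2 changed in KO against WT, at 1.47 CPM in KO and 3.52 CPM in WT (log2 fold change -1.25 ± 0.33, edgeR adjusted p = 0.0141), opposite to CILP2. Of 9 genes of NAD(P)HX repair and NAD synthesis 3 rose and none fell. NAMPT, the rate-limiting enzyme of NAD salvage, was at 230 CPM in KO and 98.3 CPM in WT (1.23 ± 0.12, edgeR adjusted p = 2.14e-06). NNT, the mitochondrial transhydrogenase, rose by 0.55 ± 0.14 (edgeR adjusted p = 0.0127), and the mitochondrial NAD kinase gene NADK2 by 0.44 ± 0.11 (edgeR adjusted p = 0.0124). NAXE, the epimerase that works with NAXD, had -0.30 ± 0.17 and did not pass (edgeR adjusted p = 0.25).

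Of 7 genes of tryptophan and kynurenine breakdown 1 rose and 3 fell in KO against WT. The amino acid transporter SLC7A5 rose by 0.67 ± 0.14 (SE, edgeR adjusted p = 0.00217). AFMID, which acts on the product of TDO2, fell by 0.70 (SE 0.23, edgeR adjusted p = 0.0403), and the kynurenine aminotransferases AADAT and KYAT3 fell by 1.66 (SE 0.48, edgeR adjusted p = 0.0227) and 0.56 (SE 0.16, edgeR adjusted p = 0.0218). The genes that act after TDO2 and that passed the test were thus lower in the KO, but others did not pass. QPRT was at 397 CPM in KO and 401 CPM in WT (-0.01 ± 0.11, edgeR adjusted p = 0.953). KMO was at 1.82 CPM in KO and 0.927 CPM in WT (0.96 ± 0.54, edgeR adjusted p = 0.241). AADAT was low in both groups, at 0.859 CPM in KO and 2.72 CPM in WT. Of 16 genes of the spectrin and actin skeleton 5 rose and 1 fell. TMOD3, which caps actin filaments, rose by 0.83 ± 0.12 (edgeR adjusted p = 0.000152), the adducin gene ADD1 by 0.52 ± 0.10 (edgeR adjusted p = 0.00178) and the ankyrin gene ANK3 by 1.00 ± 0.25 (edgeR adjusted p = 0.00856). Another ankyrin gene, ANK2, fell by 2.39 (SE 0.56, edgeR adjusted p = 0.00598).

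For the genes off in the KO, the relatives that passed moved in both directions. Of 10 junction genes 2 rose and 1 fell in KO against WT. MARVELD3, of the same family as MARVELD2, was at 1.23 CPM in KO and 3.21 CPM in WT (-1.38 ± 0.44, edgeR adjusted p = 0.0386). The claudin gene CLDN4 was at 5.01 CPM in KO and 1.01 CPM in WT (2.29 ± 0.48, edgeR adjusted p = 0.00292), and CLDN12 rose by 0.85 ± 0.15 (edgeR adjusted p = 0.000691). Of 6 genes of the SH3TC1 list, RAB11A rose by 0.54 ± 0.10 (edgeR adjusted p = 0.000929) and its effector gene RAB11FIP2 by 0.77 ± 0.16 (edgeR adjusted p = 0.00294), and none fell.

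Of 16 genes around CD109 2 rose and 1 fell. The ligand gene TGFB2 was at 6.05 CPM in KO and 18.5 CPM in WT (-1.61 ± 0.20, edgeR adjusted p = 2.99e-05). The co-receptor gene TGFBR3 rose by 0.50 ± 0.17 (edgeR adjusted p = 0.0445), and SKIL, which represses SMAD proteins, by 0.53 ± 0.17 (edgeR adjusted p = 0.0379). A2M, of the same protein family as CD109, had 0.21 ± 0.14 and did not pass (edgeR adjusted p = 0.345). TPD52L1 and TPD52L2, the other family members tested beside TPD52, had -0.20 ± 0.12 and -0.14 ± 0.13, and MAL2, a TPD52 partner, had -0.33 ± 0.19. None of these 3 passed in KO against WT by edgeR, and the smallest of their adjusted p-values was 0.257.

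Of 8 genes of the network of EYA, DACH and sine oculis factors 2 rose and 1 fell. EYA4, of the same family as EYA2, was at 20.8 CPM in KO and 11.6 CPM in WT (0.84 ± 0.18, edgeR adjusted p = 0.00269), SIX2 rose by 0.50 ± 0.16 (edgeR adjusted p = 0.0322) and DACH2 fell by 0.99 (SE 0.29, edgeR adjusted p = 0.0246). Of 12 genes of mucin-type O-glycosylation 2 rose and 4 fell. GALNT2 was at 473 CPM in KO and 222 CPM in WT (1.09 ± 0.11, edgeR adjusted p = 3.67e-06), and GALNT13 was at 106 CPM in KO and 41.2 CPM in WT (1.36 ± 0.14, edgeR adjusted p = 3.01e-06). GALNT11 fell by 1.07 (SE 0.16, edgeR adjusted p = 0.00016) and GALNT17 by 1.91 (SE 0.32, edgeR adjusted p = 0.000441). The transferases of this family thus split in direction between KO and WT, with GALNT12 among those that were lower.

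**Figure D5:**
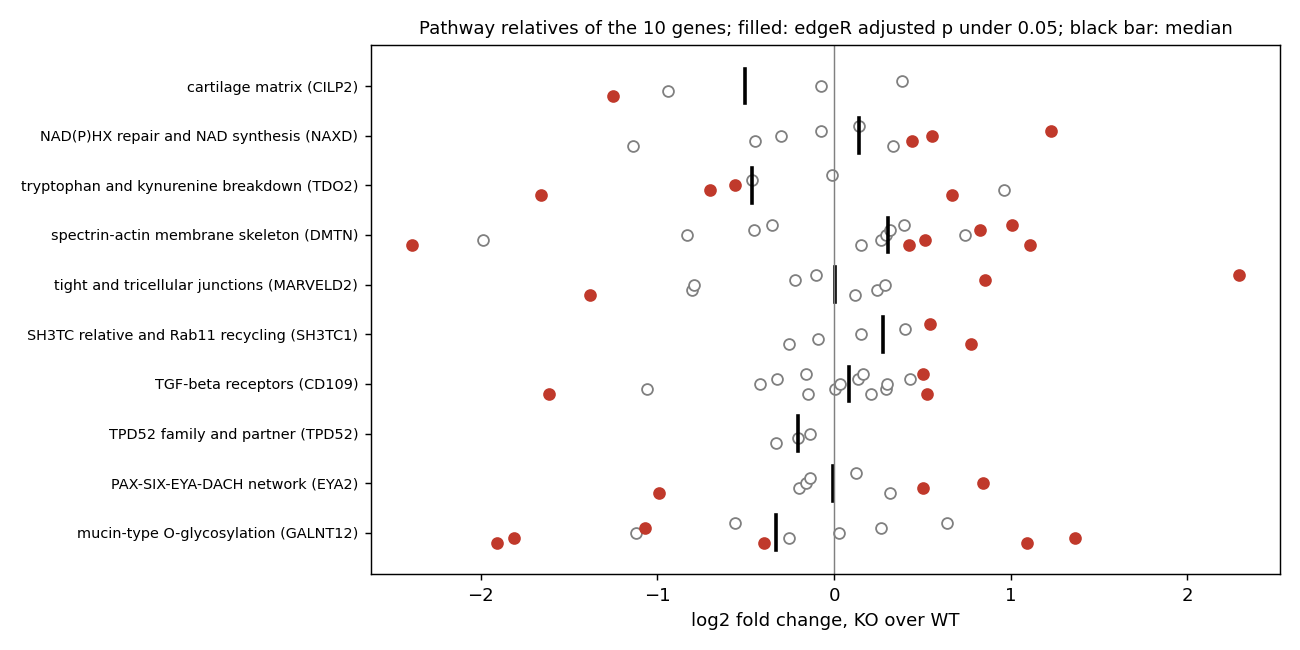
Log2 fold change of KO over WT for the 91 tested relatives and pathway partners, 1 row per list named by the gene it belongs to, with filled points for an edgeR adjusted p under 0.05 and a black bar at the list's median. Filled points lie on both sides of 0 in 6 lists, and the TPD52 list has none.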

How the data were processed

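The authors deposited read counts per gene for 9 libraries, whole numbers and not normalized. Per the file headers they were made with featureCounts 1.5.2 on Ensembl release 101 of GRCh38, with only annotation and output options, so strand was ignored, reads of a pair were counted singly, and reads with several places or genes were left out. The submitters' processing notes name HISAT2 1.03, FastQC, DESeq2, Subread and featureCounts 0.1.0, a version that differs from the one in the header.

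Groups came from the genotype labels. The test was edgeR's quasi-likelihood F test (edgeR 4.0.16, R 4.3.3) in 1 fit over 9 libraries, after TMM scaling and a filterByExpr minimum count of 10. This left 14150 genes and 6 residual degrees of freedom, with a biological coefficient of variation of 0.15 and a median standard error of 0.187 for log2 fold changes of KO against WT. Adjusted p-values are Benjamini-Hochberg over all genes tested, and calls use a limit of 0.05. CPM are TMM-scaled. The script was tested on simulated data. Chi-square comparisons found every pair of libraries in a group to differ by more than sampling noise.

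The 10 genes, the lists of relatives and the markers were chosen with earlier results of these data known. Named neighbours are the nearest on each side and those called with a log2 fold change of at least 1 in size. Named relatives are up to 4 per list with the smallest adjusted p, plus the closest family members. Alternatives were another scaling, DESeq2 1.42.0, no filter, a replicate block, a length correction, fits of 2 groups, other windows and thresholds, leaving out each library, and, chosen after seeing the data, counts halved to read pairs and windows of 500 kb.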

Additional observations from a re-analysis of the deposited data

How the results depend on the processing

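All 10 genes kept their direction in KO against WT and KO against OE under every alternative run, while the size moved where a group had few counts. In OE against WT the sign turned for TPD52 under the length correction (log2 fold change 0.032, edgeR adjusted p = 0.957), and, with libraries left out in turn, for CILP2 (-0.58 to 0.32), DMTN (-2.70 to 2.67) and MARVELD2 (-0.19 to 0.24), none of them called; the cause was not tested. CILP2 and DMTN entered that comparison only through their KO counts, so their values carry no weight there.

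The near-silent rule took 42 genes with a limit under 0.5 CPM, 22 with at least 10 CPM in the higher group (4 of the 10 genes) and 36 when every library had to meet it. By window, neighbours called numbered 15 of 60 (3 each side), 60 of 200 (10 each side) and 20 of 76 (within 500 kb) in KO against WT, 25 and 87 in KO against OE for the first 2 windows, and 14, 41 and 15 in OE against WT. The windows hold different numbers of genes. With each library left out in turn, genes called ranged from 1764 to 3214 in KO against WT and from 1244 to 3673 in OE against WT, neighbours called from 20 to 34 and from 11 to 25, relatives called from 17 to 37 and from 12 to 31, and calls in OE against WT among all 10 genes, 4 of which entered only through their KO counts, from 0 to 3. With libraries left out, 8.6% to 25.3% of all genes tested were called in OE against WT. In the fit of the OE and WT libraries alone, 6 of the 10 could be tested and 2 were called, where 17.1% of all genes tested were.

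Correlations of same-numbered deviations ran from -0.138 to 0.246. Differently numbered libraries were not set beside them, so whether replicate numbers pair the libraries was not settled. With the replicate block 3235 genes were called in KO against WT, 6135 in KO against OE and 3757 in OE against WT, with 35, 54 and 30 neighbours called. Without it the genes called were fewer, at 2655, 5612 and 2924. Depth limits OE against WT for CILP2, TDO2 and DMTN, with at most 10 counts in either group.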
